A study of Mus musculus with 6 samples.

Results

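Gadd45 genes and cyclin-dependent kinase (Cdk) inhibitor genes encode proteins that hold cells back from division. The 10 genes examined here were Gadd45a, Gadd45b and Gadd45g, the Cip/Kip inhibitors Cdkn1a, Cdkn1b and Cdkn1c, and the Ink4 inhibitors Cdkn2a, Cdkn2b, Cdkn2c and Cdkn2d. They were chosen by gene symbol, and all 10 had a probe on the arrays, 11 probes in all, with 2 probes for Cdkn1b and 1 for each of the others. They were 10 of 16504 named genes and of 19624 features measured. No filter on low values was applied, so no member was lost to one.

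The samples were fiber cells of the mouse lens, cut out by laser capture from sections 5 µm thick. Both populations compared, mature fiber cells and elongating fiber cells, came from the GFP transgenic strain TgN(GFPU)5Nagy, so the transgene was shared by all samples. The labels state an age of postnatal day 5, pooling over littermates and at least 200 cells for arrays lens249 and lens250, and give no age for the other 4 arrays. Both populations were hybridised together on each of the 6 two-colour arrays. Channel 1 held the mature fibers on lens249, lens487 and lens493, and the elongating fibers on lens250, lens488 and lens455. The labels do not say which arrays come from separate animals or extracts, so the p-values below measure the spread between arrays, which may be technical. These p-values and the intervals treat the 6 arrays as independent. With the arrays averaged into 3 assumed pairs, 0 features passed. In dissected tissue, fewer cells of a type and less RNA per cell cannot be told apart.

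Each array gave 1 log ratio per probe, of unstated base and numerator. Signs were turned on lens250, lens488 and lens455, so that every ratio runs the same way. The positive side is the side of Dnase2b, the lysosomal nuclease that degrades DNA in lens fibers (1.81 ± 0.30, SD, n = 6), and the negative side that of Cdh2, which encodes N-cadherin (-1.78 ± 0.54). If channel 1 is the numerator, genes on the positive side were the more abundant in mature fibers, and with channel 2 as numerator the reverse holds for all of them. Which genes share a side is not affected. After turning, the 9 combinations of arrays of opposite orientation correlated across features with Pearson's r from 0.038 to 0.61 (Spearman's rho from -0.057 to 0.36, with 6 above 0), and the 6 of the same orientation with r from 0.12 to 0.34 (rho from 0.15 to 0.35). Log ratios carry no level, so the presence of fiber markers and the abundance of any gene could not be checked.

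Gadd45 proteins are small stress-inducible proteins. They bind the replication clamp PCNA, the mitotic complex of Cdk1 with cyclin B1, and the kinase Map3k4, which activates the p38 and JNK pathways. Cip/Kip proteins bind complexes of cyclins with Cdks, whereas Ink4 proteins bind Cdk4 and Cdk6 and keep D-type cyclins away from them. Lens epithelial cells leave the cell cycle at the lens equator as they become fibers, and mouse lenses that lack both Cdkn1b and Cdkn1c fail to withdraw from it.

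The promoters of the Gadd45 family are shown because these were the members with the largest values on the Dnase2b side. They are RefSeq sequences of build GRCm38.p6, from 250 bases before to 50 after each gene's start, written 5′ to 3′. Capitals mark 3 motifs on either strand. These are the TATA box, searched as TATAAA, the pentamer of the box bound by the factor NF-Y, searched as CCAAT, and the E-box of basic helix-loop-helix factors, searched as CACGTG.
Gadd45b, chr10:80929841-80930140, plus strand: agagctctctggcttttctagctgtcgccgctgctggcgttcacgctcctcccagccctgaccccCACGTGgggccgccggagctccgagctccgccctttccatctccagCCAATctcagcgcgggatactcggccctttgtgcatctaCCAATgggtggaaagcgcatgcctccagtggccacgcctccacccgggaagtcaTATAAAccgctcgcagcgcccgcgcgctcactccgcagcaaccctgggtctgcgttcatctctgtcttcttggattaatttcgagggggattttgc
Gadd45g, chr13:51846425-51846724, plus strand: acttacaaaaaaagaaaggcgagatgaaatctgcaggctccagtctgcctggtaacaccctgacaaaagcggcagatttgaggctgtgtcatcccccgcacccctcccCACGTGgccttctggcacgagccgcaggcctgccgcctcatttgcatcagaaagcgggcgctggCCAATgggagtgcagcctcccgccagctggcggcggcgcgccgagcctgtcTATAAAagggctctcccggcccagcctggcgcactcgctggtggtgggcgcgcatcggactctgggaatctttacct
Gadd45a, chr6:67037358-67037657, minus strand: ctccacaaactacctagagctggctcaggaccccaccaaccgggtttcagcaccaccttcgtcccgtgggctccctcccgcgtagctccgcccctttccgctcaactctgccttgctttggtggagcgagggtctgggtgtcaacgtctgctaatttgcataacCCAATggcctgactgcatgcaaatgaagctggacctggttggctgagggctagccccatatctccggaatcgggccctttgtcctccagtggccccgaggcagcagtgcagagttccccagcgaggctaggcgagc

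Gadd45b and Gadd45g each held all 3 motifs in this window. Gadd45b had TATAAA from position -46, CACGTG from -185 and CCAAT from -139 and -100, with the first base of the gene counted as 1. Gadd45g had TATAAA from -27, CACGTG from -142 and CCAAT from -78. Of these 3 motifs, Gadd45a held CCAAT, from -86. Another motif searched, the GC box GGGCGG, which is not capitalised, occurred on the reverse strand of Gadd45b from -158 and of Gadd45a from -163, and had no match in Gadd45g. Of 32851 RefSeq promoters of the same length, 13.6% held TATAAA, 37.4% CCAAT and 7.15% CACGTG on either strand, and 0.247% held all 3 of these. GGGCGG was in 35.7%. The motifs were chosen after the sequences were seen, and a match describes letters in a window. RefSeq promoters were found for 9 of the 10 genes, with 12 starts. Among these 12, TATAAA occurred in 2, CCAAT in 7, CACGTG in 3 and GGGCGG in 9. Cdkn1c had no entry.

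Of the 10 genes, Gadd45b and Gadd45g passed the test on the positive side and 0 on the negative side, while 8 missed the threshold. The test was limma over all 19624 features, with a dye effect fitted for every gene and Benjamini-Hochberg adjustment at 0.05. Over all features 0.372% passed on the positive side and 1.36% on the negative side, 1.73% in all. At an unadjusted p of 0.05, 4 of the 10 passed, against 16.2% of all features. The sign was the same on all 6 arrays for 3 genes, Gadd45b, Gadd45g and Cdkn1c, against 9.17% of all features (3.52% positive and 5.65% negative). The median of the 10 was 0.062, and that of all features 0.003. The genes were chosen with earlier results of these arrays known, so the counts describe them and carry no test of their own.

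Gadd45b, the member induced by stress, cytokines and NF-kappaB, had the largest ratio of the family. Its turned ratio was 2.28 on lens249, 2.97 on lens250, 1.37 on lens487, 2.39 on lens488, 1.05 on lens493 and 1.91 on lens455. All 6 values lay well on the positive side, with lens493 the lowest and lens250 the highest. Among the 19624 features Gadd45b ranked 1 from the positive end on lens249 and lens250, 6 on lens488, 20 on lens455, 40 on lens487 and 90 on lens493. Its mean was 1.99 ± 0.70 (SD, n = 6; 95% interval 1.54 to 2.44), and limma gave an adjusted p of 0.011. By size of the mean it was number 3 of all features. The difference between fiber populations was 3.99-fold (95% interval 2.92 to 5.44) were the values log2, or 98.8-fold on a log10 scale.

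**Figure D1:**
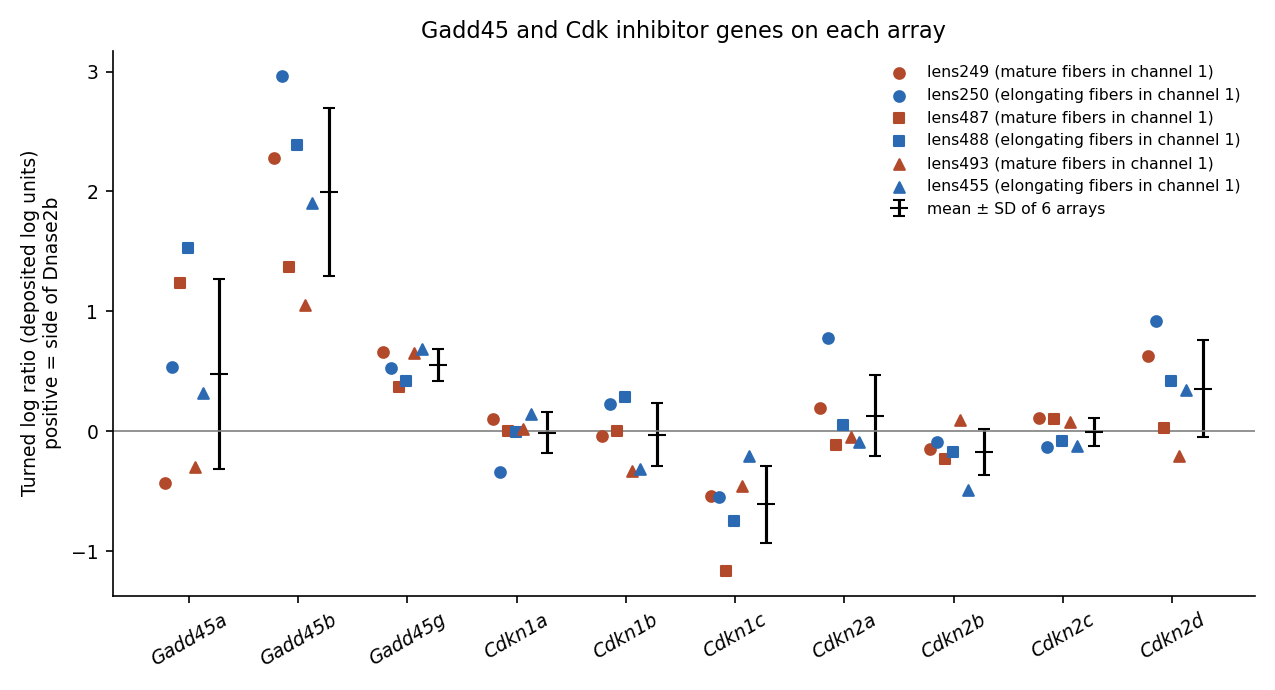
Turned log ratio between the fiber populations, numerator unstated (vertical axis, deposited log units) for the 10 growth arrest genes (horizontal axis), with a point for each of the 6 arrays, coloured by channel orientation, and the mean ± SD in black. All 6 points of Gadd45b lie between 1.05 and 2.97 and those of Gadd45g between 0.367 and 0.688, while Cdkn1c lies below 0 on every array.

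Gadd45b differed in mean between the channel orientations, though single arrays overlapped, with lens249 at 2.28 above lens455 at 1.91. It averaged 1.57 ± 0.64 (n = 3) on the arrays with mature fibers in channel 1 and 2.42 ± 0.53 (n = 3) on those with elongating fibers there. In limma the dye term was -0.43 and did not pass (adjusted p = 0.42; unadjusted p = 0.060). Leaving out 1 array at a time kept the fitted value, which allows for the dye term, between 1.82 and 2.12, and the call was lost without lens488 (adjusted p = 0.065) and held without each of the other 5 (adjusted p from 0.030 to 0.046). If lens249 and lens250, lens487 and lens488, and lens493 and lens455 share extracts and are averaged into 3 pairs, limma gave an adjusted p of 0.25, with 0 of all features past the threshold.

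Gadd45g, whose product also binds PCNA and Map3k4, had a smaller SD than Gadd45b and a smaller ratio. It was 0.663 on lens249, 0.530 on lens250, 0.367 on lens487, 0.420 on lens488, 0.651 on lens493 and 0.688 on lens455. All values were above 0, the lowest on lens487, and the orientations overlapped. Its rank from the positive end ranged from 241 on lens249 to 2351 on lens250. The mean was 0.55 ± 0.14 (n = 6; 95% interval 0.39 to 0.72; limma adjusted p = 0.021), which is 1.47-fold on a log2 scale or 3.57-fold on a log10 scale. The orientation means were 0.56 and 0.55, and the dye term was 0.0072 (adjusted p = 0.98). Without any 1 of the 6 arrays the fitted value stayed between 0.52 and 0.60 while the call was lost in limma (adjusted p from 0.060 to 0.083). On 3 averaged pairs the adjusted p was 0.25.

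Gadd45a, the p53-induced member, did not pass and varied most within the 10 genes. It had -0.433 on lens249, 0.540 on lens250, 1.24 on lens487, 1.53 on lens488, -0.296 on lens493 and 0.317 on lens455. On lens487 and lens488 it ranked 55 and 45 from the positive end, whereas on lens249 and lens493 it was below 0. The mean was 0.48 ± 0.79 (n = 6; 95% interval -0.12 to 1.08; limma adjusted p = 0.41), an interval that includes the mean of Gadd45g. The fitted value was 0.21 without lens487, 0.30 without lens488 and 0.80 with array weights, and the orientation means were 0.17 and 0.79.

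Differences within each family were tested on each array by exact sign-flip permutation (two-sided) over 12 pairs of genes, for which the smallest p that 6 arrays allow is 0.03125. Gadd45b exceeded Gadd45g by 1.44 ± 0.72 (SD), in 6 of 6 arrays and by 0.402 to 2.44 (exact p = 0.03125, adjusted p = 0.125). It exceeded Gadd45a in 6 of 6 arrays, with Gadd45a minus Gadd45b at -1.51 ± 0.96 (exact p = 0.03125, adjusted p = 0.125). Gadd45a minus Gadd45g was -0.071 ± 0.92, negative on 3 arrays and positive on 3 (exact p = 0.8125, adjusted p = 0.886). Thus 0 of the 12 pairs passed after adjustment, and at an unadjusted p of 0.05 3 did. The adjusted p of the pairs could reach 0.05 only if at least 8 of them had the smallest possible p.

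Of the 7 Cdk inhibitor genes, 0 passed in limma and 2, Cdkn1c and Cdkn2d, had an unadjusted p under 0.05. The shares of all features were 1.73% and 16.2%. The 7 inhibitor genes lay on both sides, with 2 above 0, against 51.0% of all features, and a median of -0.012. Cdkn1c had the lowest p among them, on the side of Cdh2 and opposite to the Gadd45 genes.

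**Figure D2:**
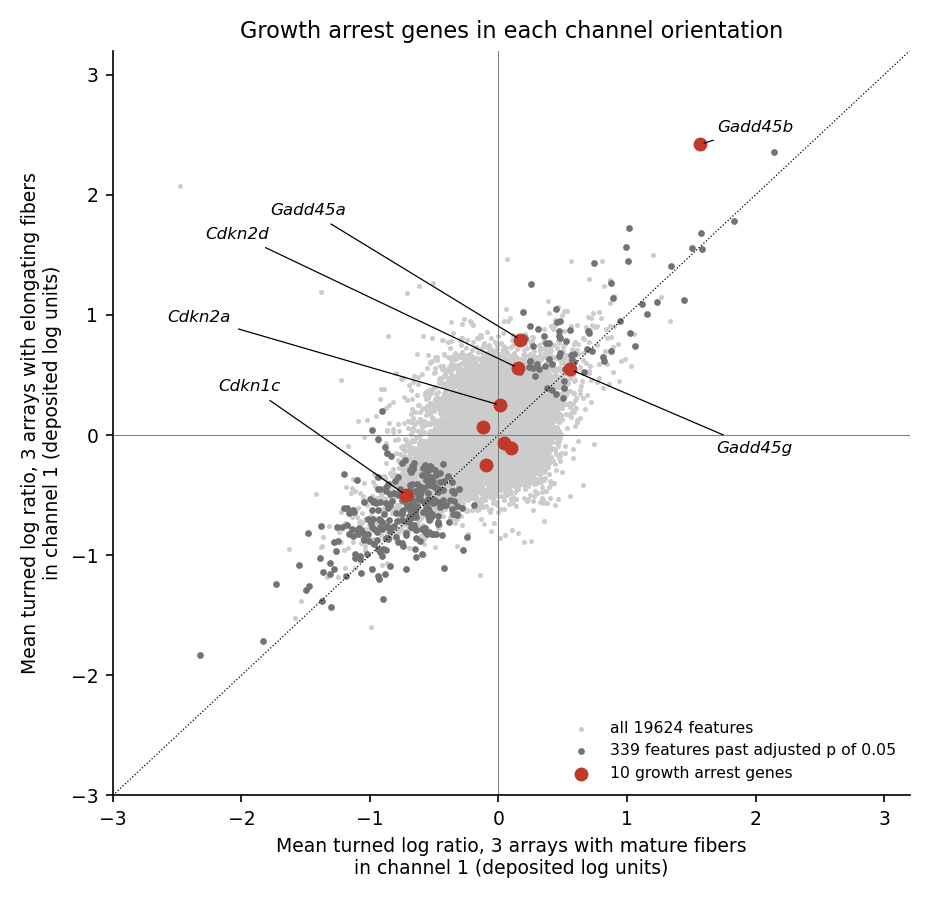
Mean turned log ratio on the 3 arrays with mature fibers in channel 1 (horizontal axis) against that on the 3 arrays with elongating fibers in channel 1 (vertical axis), both in deposited log units. Light points are all 19624 features, dark points the 339 past an adjusted p of 0.05 and red points the 10 growth arrest genes. Gadd45b stands at 1.57 and 2.42, Gadd45g at 0.56 and 0.55 and Cdkn1c at -0.72 and -0.50, on the same side in both orientations.

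Cdkn1c encodes the Cip/Kip inhibitor p57Kip2. Its turned ratio was -0.537 on lens249, -0.547 on lens250, -1.16 on lens487, -0.744 on lens488, -0.457 on lens493 and -0.208 on lens455. All arrays lay below 0, lens487 lowest and lens455 closest to 0. The mean was -0.61 ± 0.32 (n = 6; 95% interval -0.89 to -0.33), with a limma adjusted p of 0.060, and 2.45% of all features had a larger size. This is 1.53-fold on a log2 scale or 4.07-fold on a log10 scale. Cdkn1c passed on the negative side in limma with array weights (-0.73, adjusted p = 0.030) and without the dye term (-0.61, adjusted p = 0.038), and not in any fit without 1 array (adjusted p from 0.093 to 0.19). The array weights ran from 0.579 on lens250 to 2.35 on lens487, the array where Cdkn1c lay lowest.

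Cdkn1a and Cdkn1b, the other Cip/Kip genes, lay near 0. Cdkn1a, a main target of p53, had 0.103 on lens249, -0.337 on lens250, 0 on lens487, -0.003 on lens488, 0.020 on lens493 and 0.147 on lens455. Array lens250 lay apart from the other 5. The mean was -0.012 ± 0.17 (95% interval -0.19 to 0.17; limma adjusted p = 0.96). The interval would be 0.874-fold to 1.13-fold if log2, and a wider range if log10.

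Cdkn1b encodes p27Kip1 and had a mean of -0.027 ± 0.26 over the average of its 2 probes (95% interval -0.26 to 0.21; limma adjusted p = 0.93). Arrays lens250 and lens488 were above 0, at 0.229 and 0.288, and lens493 and lens455 below, at -0.328 and -0.316. Fitted on their own, its 2 probes had means of 0.019 ± 0.26 and -0.073 ± 0.39, with limma adjusted p of 0.96 and 0.84. The probes differed in sign on lens249 (0.083 and -0.154), lens250 (-0.137 and 0.594) and lens487 (0.109 and -0.109). Cdkn1c lay below Cdkn1a in 6 of 6 arrays, with Cdkn1a minus Cdkn1c at 0.60 ± 0.34 (exact p = 0.03125, adjusted p = 0.125), and below Cdkn1b in 5 of 6, with Cdkn1b minus Cdkn1c at 0.58 ± 0.50 (exact p = 0.0625, adjusted p = 0.167).

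Among the Ink4 genes, Cdkn2d had the largest ratio. It was 0.631 on lens249, 0.921 on lens250, 0.024 on lens487, 0.417 on lens488, -0.202 on lens493 and 0.342 on lens455. Only lens493 was below 0. The mean was 0.36 ± 0.41 (95% interval 0.051 to 0.66), which did not pass in limma (adjusted p = 0.24; unadjusted p = 0.028).

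Cdkn2b, induced by TGF beta in epithelial cells, had -0.143 on lens249, -0.088 on lens250, -0.234 on lens487, -0.176 on lens488, 0.097 on lens493 and -0.486 on lens455. It was below 0 on 5 arrays, with a mean of -0.17 ± 0.19 (95% interval -0.36 to 0.017; limma adjusted p = 0.35). Cdkn2a encodes Ink4a and, from another first exon, the p53 activator Arf. Its single probe is assigned to the gene here and not to either product. It had a mean of 0.13 ± 0.34 (95% interval -0.15 to 0.42; limma adjusted p = 0.66), with 0.780 on lens250 and -0.113 to 0.197 on the other 5 arrays. Without lens250 the fitted value, with the dye term, was -0.0018.

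For Cdkn2c the sign of the ratio went with the channel. Before turning, its deposited ratio was positive on every array, at 0.126 on lens249, 0.137 on lens250, 0.103 on lens487, 0.097 on lens488, 0.091 on lens493 and 0.148 on lens455. After turning, the mean was therefore close to 0, at -0.0063 ± 0.12 (95% interval -0.13 to 0.12; limma adjusted p = 0.97), with 0.098 ± 0.019 and -0.11 ± 0.025 (n = 3 each) in the 2 orientations. Its dye term was 0.10 and did not pass in limma (adjusted p = 0.47; unadjusted p = 0.091). Across the 10 genes 0 dye terms passed, and 0 had an unadjusted p under 0.05. Over all features 0% passed for dye, and 12.6% had an unadjusted p under 0.05. Within the Ink4 family the 6 pairwise differences had exact p from 0.09375 to 0.59375.

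Partners and targets of these proteins are given from 7 lists of 116 measured genes in all, of which 1 passed on the positive side and 2 on the negative. The shares of all features were 0.372% and 1.36%, with 16.2% at an unadjusted p under 0.05 in limma. The list of Gadd45-bound and downstream genes held Map3k4, PCNA, Tdg, and kinases of the p38 and JNK pathways. Of its 13 measured genes 0 passed in limma, and 2 had an unadjusted p under 0.05. These were Map2k4, a JNK-activating kinase (-0.53 ± 0.39, limma adjusted p = 0.11), and Map2k6, a p38-activating kinase (-0.20 ± 0.20, adjusted p = 0.28). The median of the list was -0.099, with 4 of 13 genes above 0.

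Of 15 measured genes of cyclins, Cdks and the Cdk-activating kinase, 0 passed. The list had 4 genes at an unadjusted p under 0.05 and a median of -0.056. The lowest p belonged to Mnat1, a subunit of the Cdk-activating kinase (-0.44 ± 0.29, below 0 on 6 of 6 arrays, limma adjusted p = 0.055), and Ccnd1, cyclin D1 (-0.34 ± 0.24, adjusted p = 0.14). Of 12 Rb and E2F genes 0 passed, with 3 at an unadjusted p under 0.05 and a median of -0.086. Rbl2, a pocket protein of resting cells, had 0.25 ± 0.16 (6 of 6 arrays above 0, adjusted p = 0.18), and E2f5, one of its partners, had -0.20 ± 0.14 (6 of 6 below 0, adjusted p = 0.23).

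Genes of the p53 pathway lay on both sides. Of 20 measured, Sesn1, a stress-induced inhibitor of mTORC1 signalling, passed on the positive side and Perp, a membrane protein of cell adhesion and apoptosis, on the negative. Sesn1 had 0.447 on lens249, 0.132 on lens250, 0.416 on lens487, 0.332 on lens488, 0.490 on lens493 and 0.550 on lens455, with a mean of 0.39 ± 0.15 (limma adjusted p = 0.0498). All its averaged values were above 0, but its 2 probes differed. Fitted on their own, one had 0.90 ± 0.36 (above 0 on 6 of 6 arrays, limma adjusted p = 0.026) and the other -0.11 ± 0.29 (adjusted p = 0.48). The call on their average was lost without any 1 array (adjusted p from 0.063 to 0.17) and with robust eBayes. Perp had -0.739, -0.551, -0.573, -0.434, -0.540 and -0.395 on the arrays in the same order, with a mean of -0.54 ± 0.12 (adjusted p = 0.017). All its values were below 0, and its call held without lens250 (adjusted p = 0.049) and in none of the other fits without 1 array (adjusted p from 0.0501 to 0.083). The list's median was -0.046, with 6 genes at an unadjusted p under 0.05.

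Immediate early and stress response genes, a class that is induced along with Gadd45b in many cells, had a median of 0.0066. Of 22 measured, 0 passed in limma and 5 had an unadjusted p under 0.05. Klf6, a zinc finger factor, had -0.73 ± 0.36 (below 0 on 6 of 6 arrays, adjusted p = 0.054) and Atf5, a factor of the integrated stress response, 0.83 ± 0.46 (above 0 on 6 of 6 arrays, adjusted p = 0.068). They lay on opposite sides.

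Of 13 genes of the ubiquitin ligases that degrade Cip/Kip proteins, and related factors, 1 passed, on the negative side, with 4 at an unadjusted p under 0.05 and a median of -0.14. It was Cul4a, the scaffold of a ligase that degrades the Cdkn1a product during DNA synthesis, at -1.12 ± 0.31 (limma adjusted p = 0.011), with the call lost without lens488 (adjusted p = 0.065). Of 21 transcription and chromatin regulators of the inhibitor genes 0 passed, with 1 at an unadjusted p under 0.05 and a median of 0.023. It was Zbtb17, which activates Cdkn1a and Cdkn2b, with 0.26 ± 0.14 (above 0 on 6 of 6 arrays, adjusted p = 0.13). Next came Smad3, of TGF beta signalling, with -0.09 ± 0.08 (adjusted p = 0.54).

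**Figure D3:**
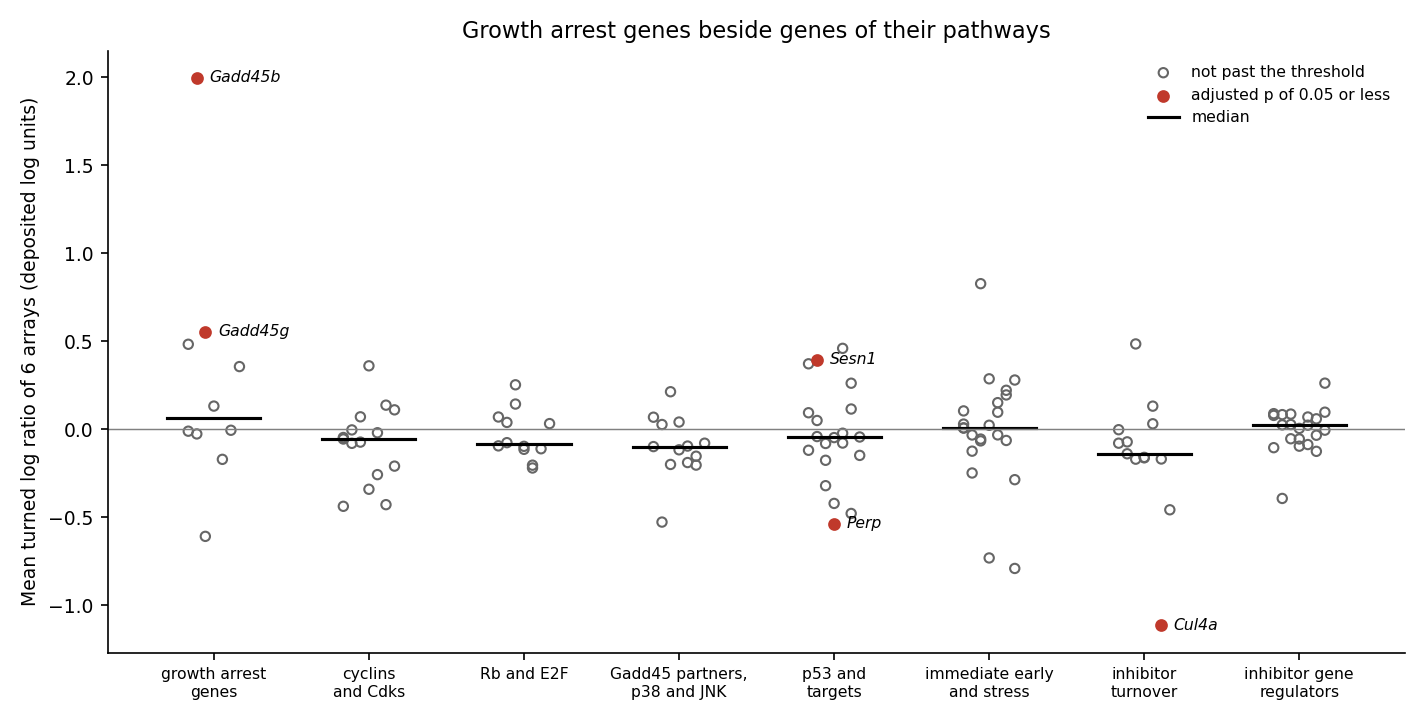
Mean turned log ratio of 6 arrays (vertical axis, deposited log units) for the 10 growth arrest genes and for each gene of 7 pathway lists, with the median of each list as a bar. Filled red points passed an adjusted p of 0.05 in limma. Gadd45b at 1.99 lies above every gene of the 7 lists, whose highest value is 0.83, of Atf5.

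The genes most like Gadd45b over the 6 arrays were sought by Euclidean distance of the turned ratios among named genes, where the median distance of all genes was 5.16. A gene at 0 on all 6 arrays would lie at 5.13, so nearness reflects large ratios as well as a shared pattern. Timeless, a replication fork protein, was nearest at 1.79. Its ratios were 2.08, 2.12, 1.16, 1.62, 0.364 and 0.751 on lens249, lens250, lens487, lens488, lens493 and lens455, with lens250 highest and lens493 lowest in both genes (mean 1.35 ± 0.71, limma adjusted p = 0.054). Dnase2b followed at 1.83, then Ralgds at 2.02, Ints6 at 2.16 and Stx11 at 2.37. For Cdkn1c the median distance was 1.75, and a gene at 0 on all 6 arrays would lie at 1.66. The 5 nearest genes were Rnf7 at 0.312, Serp1 at 0.316, Nipa1 at 0.317, Txn1 at 0.354 and Tbcd at 0.384. Rnf7 encodes a RING subunit of cullin ligases and had -0.61 ± 0.24 (limma adjusted p = 0.036), with the call lost without any 1 array (adjusted p from 0.059 to 0.13).

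Markers of other cell types that the dissected zones could hold are given as measured, and their part in the results above was not tested. For comparison, 1.73% of all features passed in limma and 16.2% had an unadjusted p under 0.05. Of 14 lens epithelium markers Col4a1, a basement membrane collagen, passed on the negative side (-0.95 ± 0.38, limma adjusted p = 0.030; called without lens249 but not without any other array, adjusted p up to 0.12). The list had 5 genes at an unadjusted p under 0.05, most of them on the negative side. Its genes ran from -0.95 to 0.30, with 9 of 14 above 0, a median of 0.067, and array means from -0.25 to 0.12. Of 12 macrophage and leukocyte markers Laptm5 passed on the positive side (0.35 ± 0.21, adjusted p = 0.039; 0.093 to 0.15 without 1 array), at 0.17 with mature and 0.53 with elongating fibers in channel 1. That list had 2 genes at an unadjusted p under 0.05, 5 of 12 above 0, a median of -0.014, and array means from -0.026 to 0.15. Of 11 blood and vessel markers 0 passed in limma (0 at an unadjusted p under 0.05; list means -0.037 to 0.14), led by Vwf (0.16 ± 0.17, adjusted p = 0.38) and Cldn5 (0.22 ± 0.34, adjusted p = 0.45). Of 14 retina and pigment cell markers 0 passed (3 at an unadjusted p under 0.05; list means -0.0036 to 0.19), led by Gnat1 (0.30 ± 0.23, adjusted p = 0.18) and Rpe65 (0.20 ± 0.27, adjusted p = 0.19). Of 13 lens fiber markers Dnase2b alone passed, on the positive side (limma adjusted p = 0.0048). The fiber list, Dnase2b included, had 2 genes at an unadjusted p under 0.05, 8 of 13 above 0 and a median of 0.048. Its array means ran from -0.10 to 0.43.

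**Figure D4:**
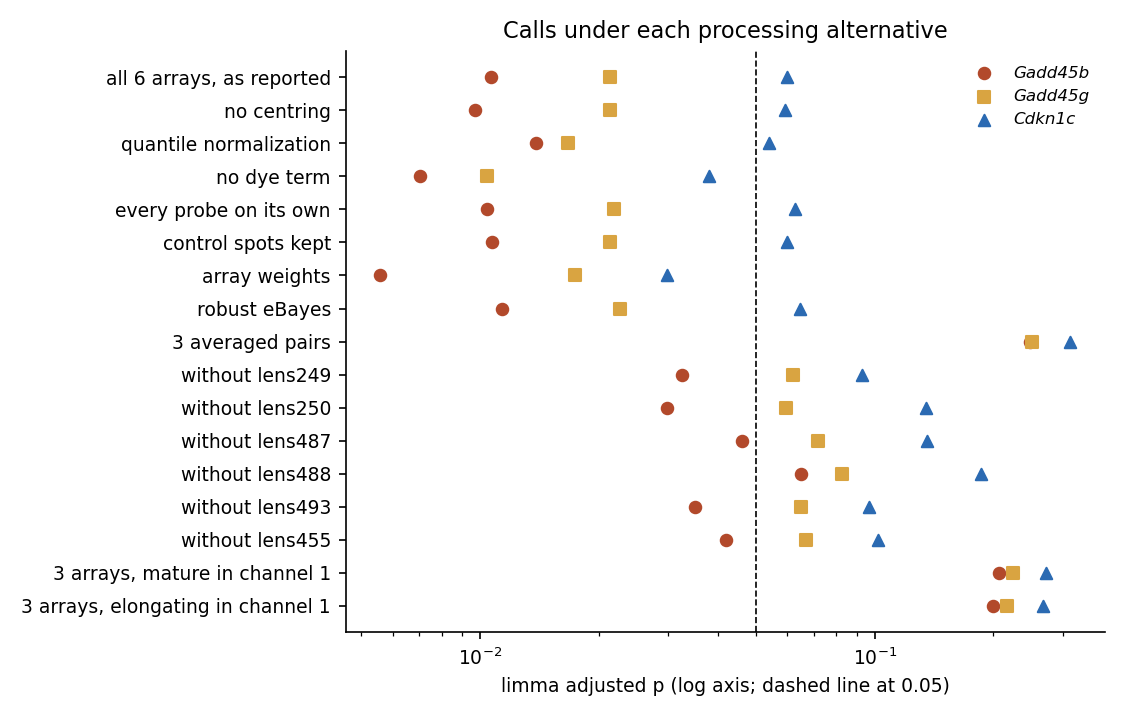
Benjamini-Hochberg adjusted p of limma (horizontal log axis) for Gadd45b, Gadd45g and Cdkn1c under each processing alternative (vertical axis), with a dashed line at 0.05. Gadd45b stays left of the line except without lens488 (0.065), on 3 averaged pairs (0.25) and on each orientation alone (0.21 and 0.20), while Gadd45g crosses it in those settings and whenever 1 array is left out.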

How the data were processed

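For 22575 probes the authors deposited 1 log ratio per array, with 0 missing. Its base, numerator, background correction and normalization are not stated in the sources used. The medians of the deposited ratios lay between -0.006 and 0.025. The unit was recorded as unknown, folds are given only under a stated base, and no intensities were used, so the number of arrays limits the precision. Probe symbols came from the platform annotation (18218 probes with 1 symbol, 16 with several, 4341 unlisted), and 18175 matched RefSeq by gene ID with 0 symbols changed. Repeated rows entered once. Of the unlisted probes, 1032 in 10 groups of 49 or more with the same values were dropped. Arrays were turned, centred on the median, and probes of a gene averaged. The test was limma 3.58.1 (lmFit, eBayes) in R 4.3.3. It was tried on simulated data with independent arrays, which cannot show the effect of shared extracts. Differences within families used exact sign flips in Python 3.11.15, and figures matplotlib 3.10.9. SDs cover the 6 turned arrays and include the dye effect, which limma fits separately. The genes named were all members, every list gene past the threshold or else the 2 with the lowest p, and the 5 nearest genes of Gadd45b and of the inhibitor with the lowest p. Members and lists were chosen with earlier results of these data known. Alternatives were no centring, quantile normalization, no dye term, single probes, array weights, robust eBayes and 3 averaged pairs of opposite orientation. Each array was also left out, and each orientation was fitted alone. In a further alternative, control spots kept, the 10 dropped groups stayed in with 1 row each, which could change little.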

Additional observations from a re-analysis of the deposited data

Results flagged for a closer look

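Of 40 genes named, 3 stood out by a single array that lay apart from the rest. By chance about 1 in 20 genes would, or 2 of them. Cdkn1a had -0.337 on lens250, where the other 5 arrays lay between -0.003 and 0.147. Cdkn2a had 0.780 on lens250, against -0.113 to 0.197. Cul4a had -1.74 on lens493, against -1.06 to -0.912.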

How the results depend on the processing

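Alternatives left 67 to 94 features on the positive and 256 to 349 on the negative side, except for array weights (178 and 478) and for 3 averaged pairs and each orientation alone, with 0 on both sides in limma (2395, 2609 and 2670 at an unadjusted p under 0.05). Without 1 array, 2 to 33 and 14 to 96 remained. Of the members, 1 instead of 0 passed on the negative side without the dye term and with array weights, in each case Cdkn1c (-0.61 and -0.73). On 3 averaged pairs and in each orientation alone 0 passed on the positive side, with Gadd45b at 1.99, 1.57 and 2.42 and Gadd45g at 0.55, 0.56 and 0.55 for pairs, mature and elongating fibers in channel 1. Without 1 array 0 to 1 passed, with Gadd45b from 1.82 to 2.12 and Gadd45g from 0.52 to 0.60. In the pathway lists, 2 positive genes passed with quantile normalization, no dye term and array weights, 4 negative with quantile normalization and array weights, 0 positive with robust eBayes, and 0 on either side with averaged pairs or 1 orientation. Without 1 array it was 0 positive and 0 to 2 negative. In the marker lists, 2 negative genes passed with quantile normalization and array weights, 1 positive without the dye term, and 0 on either side with averaged pairs or 1 orientation. Without 1 array it was 1 positive and 0 to 1 negative. Members near 0 changed sign. Cdkn2c had 0.0084 with quantile normalization, 0.00042 with array weights and 0.098 with mature fibers in channel 1 alone. Cdkn1b had 0.034 with array weights and 0.067 with elongating fibers in channel 1 alone, where Rpe65 had -0.023, and Cdkn1a had 0.041 in the other orientation. Without 1 array, Cdkn1a ranged from -0.065 to 0.057, Cdkn1b from -0.082 to 0.069 and Cdkn2a from -0.0018 to 0.22. Over the same fits Gadd45a minus Gadd45g ranged from -0.31 to 0.13, Cdkn1a minus Cdkn1b from -0.074 to 0.13 and Cdkn2a minus Cdkn2c from -0.017 to 0.21. The cause was not tested, beyond fewer arrays where arrays were left out or averaged. Values without 1 array are fitted with the dye term. The labels give no replicate numbers to pair on (those used only name arrays in accession order), and the 3 averaged pairs assume shared extracts. Atf5 was close within each assumed pair, at 0.558 and 0.430 on lens249 and lens250 and 0.572 and 0.574 on lens487 and lens488. On lens493 and lens455 Atf5 was 1.412 and 1.414. Gadd45a, at -0.433 on lens249 and 0.540 on lens250, was not close. Whether the arrays of a pair share extracts was not tested. Signal over background is unknown.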
